A study of Mus musculus with 5 samples.

Results

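The neural crest transcription factors examined here are 10 genes outside the Sox family: Egr2, Tfap2a, Tfap2b, Foxd3, Pax3, Msx1, Msx2, Ets1, Nr2f1 and Nr2f2. They were chosen by name, as factors of the neural crest and of the early Schwann cell lineage that grows out of it. No cutoff on a measured value was used, but earlier results of these data were known when the choice was made. All 10 were found among the 27729 genes of the deposited values, and all 10 belong to the 13346 genes that reached 10 expected counts in at least 1 library, called the kept genes. Pax3 passed that filter through days 10 and 14 alone, and Tfap2b through days 5, 10 and 14.

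RNA was measured in mouse embryonic fibroblasts (MEFs) of the ICR strain, the mixed connective tissue cells of mid-gestation embryos from which head and internal organs had been removed. Per the methods of the study, a brief trypsin step discarded loosely attached cells, which include those able to form neurons, so the cultures were enriched for firmly attached cells and remain a mixed population. The groups are MEFs on day 0, before the change from serum-containing medium, and the same kind of culture on days 2, 5, 10 and 14. The later cultures were in a serum-free defined medium that drives the cells towards a neuron-like state, called chemical induction in the figures. Per the paper, it holds DMEM/F12, N2, vitamin C, 2-mercaptoethanol, the growth factor bFGF and leukemia inhibitory factor. The labels call the medium 6C and the paper calls it 5C, and no gene was deleted or added in any group. The labels date the last library to day 14, while the treatment text beside them says day 15. There was 1 library per day, so no difference between days has a replicate check and no test was possible. The libraries held between 2253748 (day 2) and 3890334 (day 0) expected counts, which are RSEM's estimates of the reads from each gene. Because of the lower depth, 3 counts stand for a normalized count of 5.43 on day 2 and of 2.14 to 2.97 on the other days. Normalized counts are expected counts corrected for library size with TMM factors. A change is the log2 ratio between 2 libraries after 1 was added to each normalized count, and each change has a 95% interval that covers counting error only. All 10 fibroblast markers were above 0 in every library. The same held for all 5 smooth muscle markers, so presence alone does not single out fibroblasts. Of 11 neuron markers, Rbfox3, Dcx, Syt1, Elavl3 and Elavl4 had under 3 counts in every library, and the other 6 were kept.

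Neural crest cells arise at the border of the neural plate, leave the neural tube and form peripheral neurons, glia, pigment cells and parts of the head skeleton. Msx1, Msx2, Pax3 and the AP-2 proteins Tfap2a and Tfap2b act early, at the plate border, while Foxd3 and Ets1 belong to the specifiers of the crest itself. Nr2f1 and Nr2f2 are orphan nuclear receptors that act in crest, brain and blood vessels, and Egr2 switches on myelin genes in Schwann cells.

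The promoters of 3 factors are shown because these factors followed different courses, Foxd3 with the largest difference between day 14 and day 0, Nr2f2 with a small one and Msx1 with lower normalized counts on every later day, a direction that turned on the TPM scale from day 5 on. Each sequence is the 250 bases before the start of the RefSeq transcript, on GRCm38.p6, in the direction of the gene, and lies outside the annotated gene. Capitals mark an E-box, CANNTG, the motif of bHLH and zinc finger E-box proteins. The first lies at chr4:99656049-99656298 on the plus strand, the second at chr5:37824586-37824835 on the minus strand and the third at chr7:70366747-70366996 on the minus strand.
Foxd3: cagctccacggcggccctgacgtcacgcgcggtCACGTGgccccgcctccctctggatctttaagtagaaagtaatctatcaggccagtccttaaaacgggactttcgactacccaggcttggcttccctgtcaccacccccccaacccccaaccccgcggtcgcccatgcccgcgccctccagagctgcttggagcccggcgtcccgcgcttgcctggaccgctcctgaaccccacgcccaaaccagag
Msx1: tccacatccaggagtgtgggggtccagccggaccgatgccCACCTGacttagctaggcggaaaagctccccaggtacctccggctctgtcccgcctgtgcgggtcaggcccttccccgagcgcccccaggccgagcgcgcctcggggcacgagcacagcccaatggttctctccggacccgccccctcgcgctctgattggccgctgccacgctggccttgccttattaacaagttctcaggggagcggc
Nr2f2: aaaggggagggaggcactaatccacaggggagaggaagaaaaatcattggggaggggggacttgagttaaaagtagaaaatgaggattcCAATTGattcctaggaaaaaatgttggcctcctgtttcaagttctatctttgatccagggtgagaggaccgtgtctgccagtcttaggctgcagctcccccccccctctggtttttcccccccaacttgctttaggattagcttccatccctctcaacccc

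RefSeq promoters were at hand for 8 of the 10 factors, with Ets1 and Pax3 not among them. Only 3 of the 8 windows, those shown above, lie outside the annotated gene. The windows of Tfap2a, Tfap2b, Msx2 and Nr2f1 lie wholly inside it, and that of Egr2 by 24 of its 250 bases. An E-box stood in 6 of the 8, where 66.2% of the 32851 promoters in the table held one on either strand. The SOX core ACAAT was found in 1 of the 8, that of Tfap2b, against 27.7% of all promoters. The AP-2 motif GCCNNNGGC was found in the promoters of Egr2 and Nr2f1, against 13.7% of all. TAATTG, the type of site bound by MSX proteins, was found in those of Tfap2a and Tfap2b, against 7.17%. The EGR motif GCGNGGGCG (4.7% of all promoters), the nuclear receptor motif AGGTCA (14%) and the ETS motif CCGGAAGT (2.88%) were in none of the 8 windows.

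By day 14 most of the factors were higher than in the starting MEFs. Of the 10, 8 were over 2-fold higher on day 14 than on day 0 and 1, Msx2, was over 2-fold lower, where 24.5% of all kept genes were over 2-fold higher and 19.9% lower. The median log2 change of the factors was 2.54, against 0.07 over all kept genes. Of the 10, 8 were higher at any size, against 52.7% of all kept genes. The Schwann cell marker list moved in the same direction, with a summed normalized count of 113 in the first library and 8801 in the last, with 8 of its 8 genes over 2-fold higher, and its part in the result was not tested. In RNA from whole cultures, more cells of a type and more RNA of a gene per cell cannot be told apart.

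**Figure D1:**
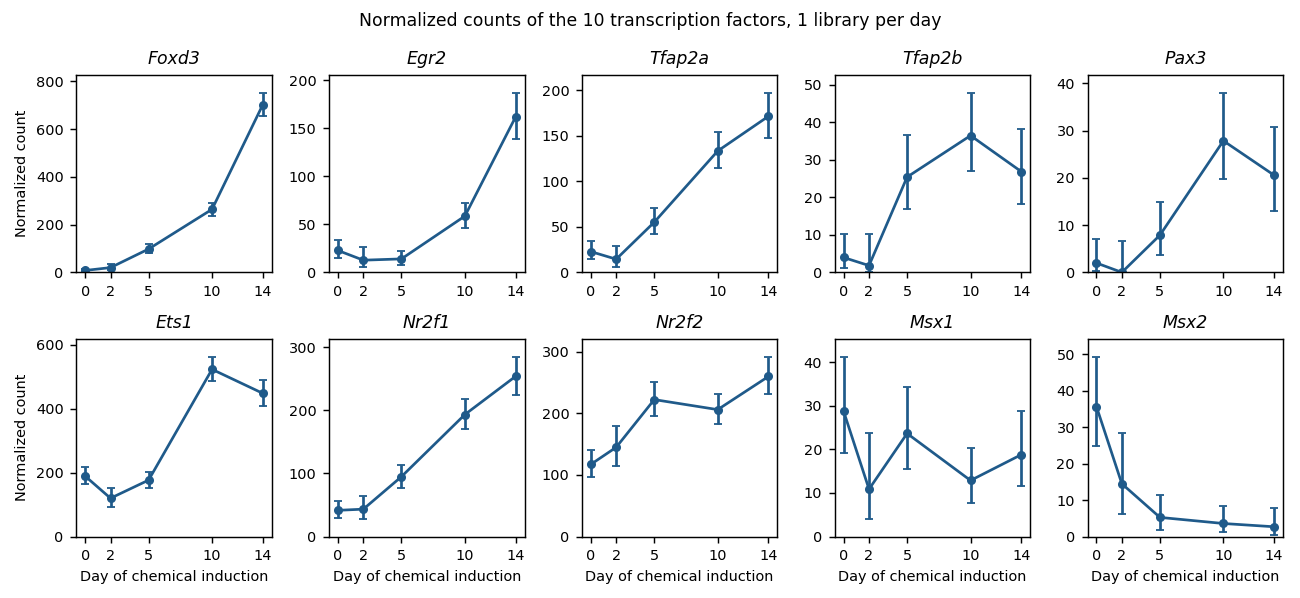
Normalized count of each factor (vertical axis, own scale per panel) against the day of chemical induction, with 1 library per day and bars for the 95% counting interval. Foxd3 starts at 7.92 and ends at 703, Tfap2b, Pax3 and Ets1 are highest on day 10, and Msx1 and Msx2 are highest on day 0.

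Foxd3, a winged-helix factor that keeps crest cells multipotent and marks early glial precursors, has a single exon on chromosome 4 (99656299 to 99658622, plus strand, GRCm38). Its normalized count was 7.92 before induction, then 19.9 (day 2), 97.7 (day 5), 264 (day 10) and finally 703. Each library thus stood above the one before it. The log2 change against day 0 was 1.23 on day 2, with an interval from -0.12 to 2.85 that includes 0. By day 5 it was 3.47 (interval 2.60 to 4.88), by day 10 it reached 4.89 (4.07 to 6.28), and the last library gave 6.30 (5.49 to 7.69). Between days 10 and 14 it was again higher by 1.41 (1.23 to 1.59), a step close in size to that of 1.43 between days 5 and 10. The day 0 level rests on 8 counts and the day 14 level on 786 counts.

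Tfap2a and Tfap2b encode AP-2 factors that bind the same kind of site and induce crest at the plate border. Tfap2a (chromosome 13, 40715302 to 40738376, minus strand) had normalized counts of 22.8, 14.5, 55.1, 133 and 172 in the order of the days. It was below its day 0 level on day 2 and above it from day 5 on, and the day 14 change was 2.86 (2.29 to 3.61). Tfap2b (chromosome 1, 19208914 to 19238576, plus strand) had 3.96, 1.81, 25.4, 36.4 and 26.8. Its first 2 libraries lay near or under the level of 3 counts, and its day 14 change was 2.49 (1.26 to 4.73). From day 10 to day 14 Tfap2a was higher by 0.36 (0.06 to 0.66), while the interval of Tfap2b, -1.14 to 0.24, includes 0.

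Pax3, a paired-box factor of the plate border and of muscle precursors, lies on chromosome 1 (78101267 to 78197134, minus strand). It had 2, 0, 9, 39 and 23 expected counts in that order, or normalized counts of 1.98, 0, 7.88, 27.8 and 20.6. It was thus at or under 3 counts in the first 2 libraries and above that level in the later 3. The change on day 10 was 3.28 (1.87 to 6.91) and on day 14 it was 2.86 (1.36 to 6.51). The summed level of 8 skeletal muscle markers went the other way, from 1212 in the first library to 48.4 in the last. The first sum was held mostly by Des (582) and Acta1 (579). Of the 8 markers 4 were kept, and all 4 were over 2-fold lower on day 14 (19.9% of all kept genes). Myod1 and Myf5 were under 3 counts in every library.

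Egr2, the zinc finger factor required for Schwann cells to myelinate, lies on chromosome 10 (67535475 to 67542188, plus strand). Its normalized count was 22.8 at the start, 12.7 and 14.0 in the day 2 and day 5 libraries, 58.6 by day 10 and 162 at the end. The early libraries did not differ beyond counting error, since the intervals against day 0, -2.31 to 0.42 for day 2 and -1.72 to 0.28 for day 5, include 0. By day 10 the change was 1.33 (0.68 to 2.10), and the last library differed by 2.78 (2.20 to 3.52). The last step, 1.45 (1.08 to 1.86) from day 10 to day 14, was one of the 2 over 2-fold among the factors, beside Foxd3, where 4.73% of all kept genes were over 2-fold higher and 8.33% lower. Egr2 is also known in macrophages, whose 11 markers summed to 135, 1045, 1123, 644 and 564 on the 5 days, and whose part in the result was not tested.

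The myelin genes that depend on Egr2 did not follow it over the last step. Of the 13 genes listed 8 were kept. Between days 10 and 14 none of the 8 was over 2-fold higher and 5 were over 2-fold lower (4.73% and 8.33% of all kept genes). The median change of the 8 was -1.22, against 0.02 over all kept genes. Over the step before, from day 5 to day 10, 6 of the 8 were over 2-fold higher and none lower (12.8% and 9.5% of all kept genes). Their median was 2.51, against -0.01 over all kept genes, and Egr2 was higher by 1.99 (1.28 to 2.94). Against day 0, 5 of the 8 were over 2-fold higher on day 14 and none lower (24.5% and 19.9% of all kept genes). The median of the 8 was 2.17, against 0.07 over all kept genes. The largest differences from day 0 were those of Mal, a membrane lipid raft protein (6.02), Cnp, a myelin enzyme (5.48), and Mag, an adhesion protein of the myelin sheath, which had 0 counts on day 0 and was at least 7.23-fold above the level of 3 counts on day 14.

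Mal had normalized counts of 1.98, 18.1, 60.4, 468 and 192 on the 5 days. It was highest on day 10 and lower on day 14 by -1.28 (-1.51 to -1.06). Mag had 0, 10.2, 3.50, 127 and 21.5, and it too peaked in the day 10 library, before a last step of -2.51 (-3.25 to -1.95). The other 3 genes past 2-fold, named here after their values were seen, were Pmp2 (-2.12), Mbp (-1.31) and Pmp22 (-1.16). Cnp had a change of 0.24 (0.13 to 0.34) in the same interval, the 1 kept gene of the list that was higher on day 14 than on day 10. Of the 15 kept regulators of the Schwann lineage, 4 were over 2-fold higher on day 14 than on day 10 (4.73% of all kept genes). None was lower (8.33%). The 4 were Jun, Sox2, Egr1 and Egr3, the last of these named after its values were seen. Jun, a factor of immature and repair Schwann cells that opposes Egr2, went from a normalized count of 1363 to 4433. Sox2, which also holds Schwann cells immature, went from 196 to 497.

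**Figure D2:**
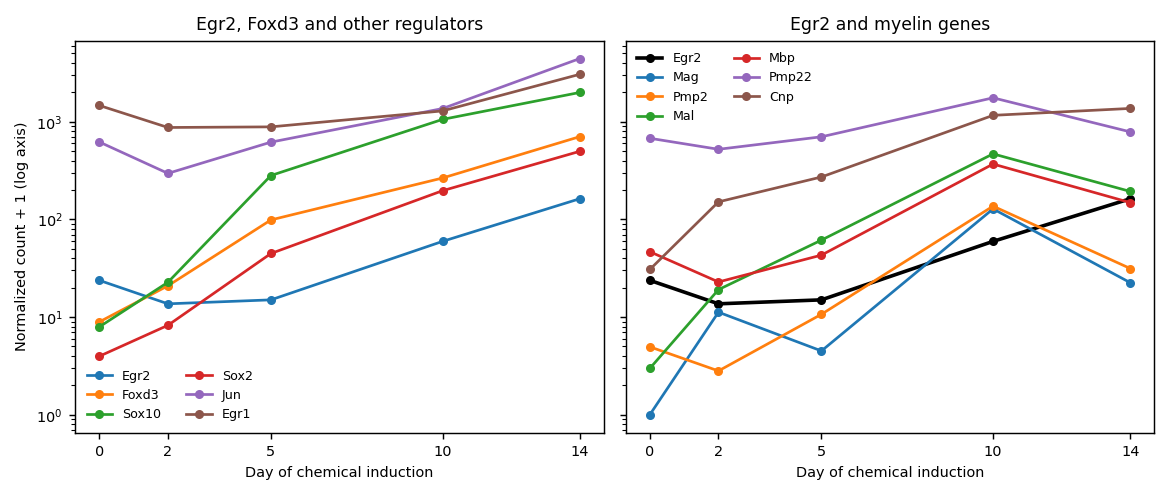
Normalized count plus 1 (log axis) against the day of chemical induction, 1 library per day, for Egr2 with other regulators (left) and with 6 myelin genes (right). From day 10 to day 14 Egr2 goes from 58.6 to 162 while Mal goes from 468 to 192 and Mag from 127 to 21.5, and Cnp is the myelin gene drawn that is above its day 10 level on day 14.

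Ets1, an ETS-domain factor of cranial crest, blood vessels and lymphocytes, lies on chromosome 9 (32636221 to 32757820, plus strand). Its normalized counts were 189, 120, 176, 523 and 448 over the 5 libraries. It was lower on day 2, by -0.65 (-1.09 to -0.25), near its first level on day 5, at -0.10 (-0.39 to 0.20), and higher on day 10, by 1.46 (1.24 to 1.70). The day 14 change was 1.24 (1.00 to 1.49), below that of day 10. Endothelial markers, which share Ets1, summed to 622 at the start and to between 66.3 and 137 later. The first sum was held mostly by Flt1 (341) and Kdr (236). Of the 5 kept endothelial markers, 2 were over 2-fold higher and 2 lower on day 2 (15.2% and 13.1% of all kept genes). On day 14, 0 were higher and 3 lower (24.5% and 19.9%). Pecam1, Tie1, Cldn5 and Erg were under 3 counts in every library. The 4 lymphocyte markers summed to 2.86 to 10.9, with Cd3e and Cd3g under 3 counts throughout.

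Kept genes as long as Ets1 were higher as a class on the later days, with a median change of 0.79 by day 10 and 0.46 by day 14 in its group of 10 groups by length. With that median subtracted, its change was 0.67 on day 10 and 0.78 on day 14, under 2-fold on both days. The same step took Nr2f2 from 1.14 to 0.74 on day 14.

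Nr2f1 and Nr2f2 encode near relatives that bind the same sites. Nr2f1 (chromosome 13, 78188973 to 78199757, minus strand) had normalized counts of 41.6, 43.4, 94.9, 193 and 254. The first 2 libraries could not be told apart and the later 3 were stepwise higher, to a day 14 change of 2.58 (2.14 to 3.11). Nr2f2 (chromosome 7, 70351944 to 70366735, minus strand) had 117, 145, 222, 206 and 260. Its day 14 change of 1.14 (0.84 to 1.48) was the smallest among the 8 factors that were over 2-fold higher. Its step from day 5 to day 10, -0.11, has an interval from -0.36 to 0.14 that includes 0.

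Both genes have an overlapping gene on the opposite strand, and the sources used here do not state that counting used strand, so reads of the partners cannot be told apart. The partner of Nr2f1, A830082K12Rik, had 8.37, 16.4, 20.9, 71.6 and 43.1 expected counts, and that of Nr2f2, B130024G19Rik, had between 2 and 17. The same limit holds for Tfap2a and Ets1. Gm26688, opposite Tfap2a, had between 0 and 7 counts, and Gm47061 and Gm47067, also opposite Tfap2a, are not among the deposited genes. Gm27240, opposite Ets1, had 0 in every library. From day 10 to day 14 Nr2f1 was higher by 0.39 (0.15 to 0.64) in normalized counts and lower by -0.56 on the log2 scale of TPM plus 1. TPM, in which counts are divided by transcript length and scaled to the same sum in each library, depends on the transcript mix that RSEM estimated, which differed between the libraries.

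Msx1 and Msx2, homeobox factors of the plate border and of limb and skull mesenchyme, were the factors with the highest normalized count on day 0. Msx2 (chromosome 13, 53466884 to 53473074, minus strand) had normalized counts of 35.6, 14.5, 5.25, 3.58 and 2.68, from 36, 8, 6, 5.01 and 3 expected counts. Each library lay below the one before, and the change against day 0 was -1.24 (-2.62 to -0.17) by day 2 and reached -3.31 (-6.08 to -2.07) in the last library. Msx1 (chromosome 5, 37820485 to 37824583, minus strand) had 28.7, 10.9, 23.6, 12.9 and 18.8. It showed no steady course, with intervals that exclude 0 on day 2, at -1.32 (-2.96 to -0.11), and day 10, at -1.10 (-2.09 to -0.26), and include it on days 5 and 14. On the scale of TPM plus 1 the day 10 and day 14 changes of Msx1 were 0.012 and 0.22, so its direction depends on the scale.

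**Figure D3:**
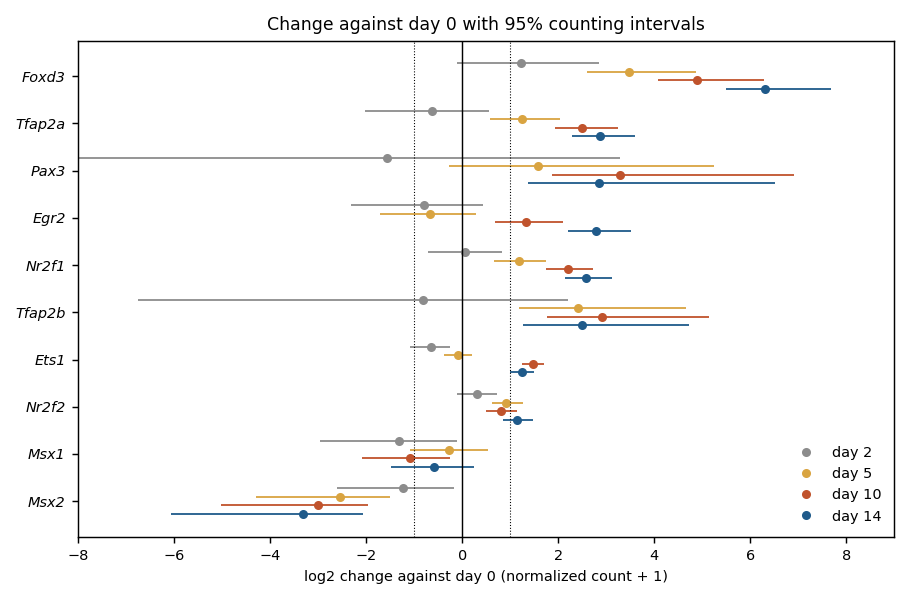
Log2 change against day 0 (horizontal axis, normalized count plus 1) of each factor on days 2, 5, 10 and 14, as points with 95% counting intervals from 1 library per day; dotted lines mark 2-fold. Foxd3 reaches 6.30 on day 14 and Msx2 -3.31, and the day 2 interval of Pax3, at 0 counts, runs off the axis on the left.

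Day 2 differed from the later days. Of the 10 factors 7 were lower than on day 0 at any size, where 51.3% of all kept genes were, with a median of -0.73 against -0.03 over all kept genes. Over 2-fold lower were Msx1, Msx2 and Pax3, the last of which had 2 counts on day 0 and 0 on day 2 and drops out when 0 is set to 3 counts, which leaves 2, and over 2-fold higher was Foxd3, where 13.1% of all kept genes were lower and 15.2% higher. The interval excluded 0 for 3 factors, Msx1, Msx2 and Ets1, all lower.

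On day 5, 5 factors were over 2-fold higher than on day 0 (20.2% of all kept genes) and 1 was lower (13.6%), and on day 10, 7 were higher (28.7%) and 2 lower (22.3%). Between neighbouring libraries, 6 factors were over 2-fold higher on day 5 than on day 2, where 19% of kept genes were, and 1, Msx2, was lower, where 12.5% were. These 6 were Foxd3, Tfap2a, Tfap2b, Pax3, Nr2f1 and Msx1, with the count 5 when Pax3 is set to 3 counts on day 2. A further 6 were over 2-fold higher on day 10 than on day 5 (12.8%), namely Egr2, Tfap2a, Foxd3, Pax3, Ets1 and Nr2f1, and none was lower (9.5%). The interval against day 0 lay above 0 already on day 5 for Foxd3, Tfap2a, Tfap2b, Nr2f1 and Nr2f2, and first on day 10 for Egr2, Ets1 and Pax3. The highest value was that of day 14 for 5 factors (17.6% of all kept genes), of day 10 for 3 (26.4%) and of day 0 for 2 (23.8%). None was highest on day 2 (21.5%) or day 5 (10.6%), and 44% of all kept genes were highest on day 10 or 14.

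Within each pair of relatives, the share of the first gene in the summed counts needs no scaling between libraries. Msx1 made up 44.6% (32.3% to 57.5%, exact Clopper-Pearson interval) of the counts of Msx1 and Msx2 before induction, then 42.9%, 81.8%, 78.3% and, in the last library, 87.5% (67.6% to 97.3%). The day 0 and day 14 intervals, which cover counting error only, do not overlap. Counts of the pair were near equal in the day 0 library (65 counts) and mostly Msx1 in the day 14 library (24 counts). Nr2f1 made up 26.3% (19.6% to 33.8%) of the counts of Nr2f1 and Nr2f2 before induction, then 23.1%, 29.8%, 48.5% and, in the last library, 49.4% (45.2% to 53.6%). Counts of this pair were thus nearer to equal in the day 10 and day 14 libraries than in the earlier ones. In summed TPM, which rests on the estimated transcript lengths, the share of Nr2f1 was 32.3% before induction, 37.7% by day 5, 64.5% by day 10 and 55.3% at the end, above equality in the last 2 libraries. Tfap2a held 85.2% of the AP-2 pair before induction, then 88.9%, 68.5% (58.0% to 77.8%), 78.6% and 86.5%, with day 5 the lowest.

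**Figure D4:**
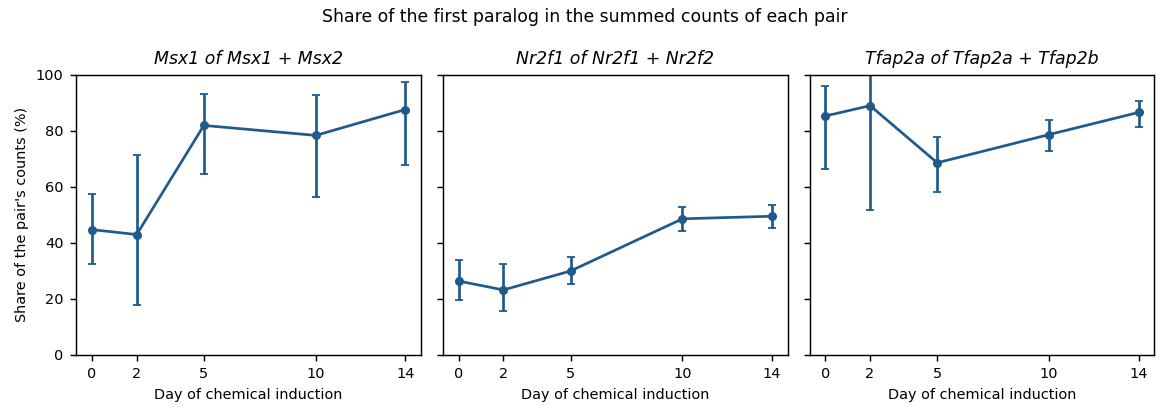
Share of the first gene in the summed expected counts of each pair (percent) against the day of chemical induction, 1 library per day, with exact 95% intervals. Msx1 goes from 44.6% to 87.5% and Nr2f1 from 26.3% to 49.4%, while Tfap2a starts at 85.2% and ends at 86.5%.

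Levels of different genes can be set side by side in TPM. On day 0 the order began with Ets1 at 16.2 TPM and Nr2f2 at 9.75 TPM, each apart from the next by its counting interval. Msx1 (5.24), Msx2 (5.12) and Nr2f1 (4.66) followed and were not told apart, and Tfap2b (0.24) and Pax3 (0.23) closed the list. On day 10 Foxd3 (90.0), Nr2f1 (88.1) and Ets1 (82.6) led with overlapping intervals. The place of Nr2f1 rests on an estimated length of 1742 bases on day 10, against 3143 on day 0 and 2757 on day 14. The counting intervals do not cover error in that length. By day 14 Foxd3, at 196 TPM, stood alone above Nr2f1 (59.6), Ets1 (57.7) and Nr2f2 (48.1). Each of these overlapped its neighbour, as did Tfap2a (38.2) and Egr2 (37.7), with the 4 factors Msx1 (6.28), Pax3 (4.09), Tfap2b (2.95) and Msx2 (0.71) well below. Foxd3 had thus moved from the eighth place to the first.

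The genes nearest in course were sought for the 6 factors with 100 or more counts in 1 or more libraries, among 8273 such genes, by the Euclidean distance between log2 changes on the 4 later days. Egr2 was nearest to Runx2 (0.57), a skeletal factor, Rubcn (0.68) and Jun (0.74). Tfap2a was nearest to Enpp4 (0.37), Mcam (0.41), a cell adhesion molecule, and Arhgef10l (0.52). For Foxd3 they were Hsd11b1 (0.72), a glucocorticoid-activating enzyme, Mmp17 (0.75) and Col15a1 (0.77), a basement membrane collagen. Sh3pxd2a (0.29), Frmd4a (0.34) and Zfc3h1 (0.40) came nearest to Ets1. For Nr2f1 they were Sorcs2 (0.19), Hspa12a (0.27) and Cadm3 (0.31), and for Nr2f2 Erlec1 (0.13), Dlg4 (0.14) and Golga5 (0.21). Among the factors themselves the nearest pair was Tfap2a and Nr2f1, at 0.80, while Msx1 and Msx2 lay 4.03 apart. Distances over 4 changes from 5 libraries that share day 0 are descriptions only.

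Of 15 listed relatives in the same families, 7 were kept, where 13346 of all 27729 genes were. Of the 7 kept relatives, 2 were over 2-fold higher and 2 lower on day 14 than on day 0 (24.5% and 19.9% of all kept genes). Their median was -0.09. Egr1, an immediate early gene related to Egr2, had a change of 1.06, with normalized counts of 1289 on day 10 and 3059 on day 14. Ets2 (-0.09) and Nr2f6 (-0.22) differed little from day 0. Tfap2c, Tfap2d, Tfap2e and Pax7 were among the 8 relatives that were not kept.

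Other neural crest regulators changed in both directions. Of 36 listed, 24 were kept. On day 5, 6 of these were over 2-fold higher and 6 lower (20.2% and 13.6% of all kept genes). By day 10, 9 were higher and 8 lower (28.7% and 22.3%). On day 14, 5 were higher and 11 lower, or 6 lower on TPM, where 24.5% of all kept genes were higher and 19.9% lower, and the median was -0.47 against 0.07 over all kept genes. The largest differences were those of Sox10 (7.97), which acts with Egr2 on myelin genes, Hand2 (-3.00), a factor of heart, limb and branchial arches, and Zeb2 (2.31), which Schwann cells need to mature. The regulators of the Schwann lineage split into 7 higher and 3 lower of 15 kept on day 14, or 6 higher with genes at 0 set to 3 counts. Of all kept genes 24.5% were higher and 19.9% lower. Among these regulators with 100 or more counts in some library, Sox10, Sox2 (6.97) and Jun (2.84) were furthest from 0.

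Surface and effector genes of crest and Schwann precursors were mostly higher. Of 16 listed and kept, 11 were over 2-fold higher and 2 lower on day 14 (24.5% and 19.9% of all kept genes), with a median of 3.59 against 0.07. Gjc3, a gap junction protein of glia, had 0 counts on day 0 and a normalized count of 274 on day 14, at least 92.4-fold above the level of 3 counts. Cdh19, a cadherin of Schwann precursors, differed by 7.87 and Ngfr, the low-affinity neurotrophin receptor of crest cells, by 6.82. From day 10 to day 14, 1 gene of this list was over 2-fold higher and 4 were lower (4.73% and 8.33%). Gjc3, Cdh19, Ngfr and others of its genes also stand in the Schwann cell marker list. Other lists share genes too, such as Sox10, Egr1 and Egr3, so the counts of the lists are not separate results.

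Melanocytes also come from crest and use Tfap2a and Pax3. Their 6 markers summed to 7.55 in the first library and 7.62 in the last, with Tyrp1 and Dct under 3 counts in every library. Fibroblast markers summed to 25250 on day 0 and 62109 on day 14, a sum held mostly by the collagen genes among them. Of the 10 fibroblast markers, 5 were over 2-fold higher and 2 lower on day 14 (24.5% and 19.9% of all kept genes). The 5 smooth muscle markers summed to 49013 on day 0 and 332 on day 14. Neuron markers summed to 676 on day 0 and 273 on day 14, a sum held mostly by Stmn2 and Map2, which were lower. Of the 6 kept neuron markers, 4 were over 2-fold higher and 2 lower on day 10 (28.7% and 22.3% of all kept genes). The median change of these 6 was 1.92, or 1.27 with genes at 0 set to 3 counts. On day 14, 3 of them were higher and 2 lower (24.5% and 19.9%). The part of these cell types in the levels of the factors was not tested.

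**Figure D5:**
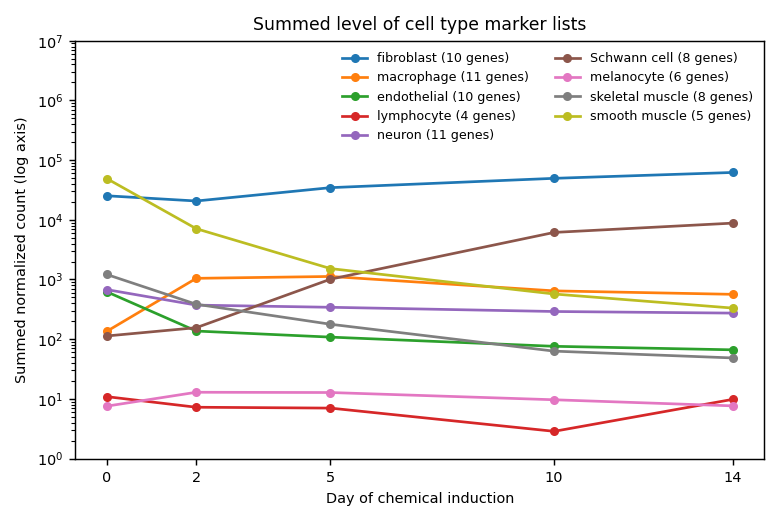
Summed normalized count of 9 cell type marker lists (log axis) against the day of chemical induction, 1 library per day. The Schwann cell list goes from 113 to 8801 and the smooth muscle list from 49013 to 332, and the melanocyte and lymphocyte lists stay at 12.9 or less.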

How the data were processed

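Total RNA of MEF cultures was sequenced in 1 library per time point (days 0, 2, 5, 10 and 14), grouped by the day in the labels. The authors deposited, per library, expected counts per gene from RSEM, TPM values and FPKM values; per the labels' processing notes Bowtie and RSEM were used with mm10, and versions, annotation and strand setting are not given in the sources used here. The deposited effective length equals the gene length in every row, and the length differs between libraries for 11539 genes, which enters TPM and FPKM but not the counts. Identifiers were matched to GENCODE M21 (GRCm38, the assembly of mm10), which named 27247 of 27729 genes.

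Expected counts were rounded for TMM factors (edgeR 4.0.16, R 4.3.3), and normalized counts were scaled to the geometric mean library size. Genes that reached 10 expected counts in at least 1 library were kept, the pseudocount was 1 and calls were made at 2-fold. Intervals (95%, exact Clopper-Pearson) rest on rounded counts without a pseudocount and cover counting error only. The floor was 3 counts, which are 0.771 to 1.33 counts per 1000000. Values of genes of different length were compared in the deposited TPM, with FPKM as an alternative. Motifs were searched in RefSeq promoters by both strands. Alternatives were DESeq2 1.42.0 size factors, TPM, a pseudocount of 5, other filters, a 4-fold threshold, subtraction of the median of each of 10 groups by gene length, and TMM without Gm42418 and Lars2.

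The genes named are the 10 factors, the 3 genes of each list with 100 or more counts and the largest change on day 14, and the 3 genes nearest in course to each factor. Others are named as chosen by value. Some genes of the lists are not reported here and were left out of their counts and sums. The members and lists were chosen with earlier results of these data known. The computations were tested on simulated counts. Python 3.11.15 was used with numpy 2.4.6, pandas 2.3.3, scipy 1.17.1 and matplotlib 3.10.9.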

Additional observations from a re-analysis of the deposited data

How the results depend on the processing

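No paired analysis was possible because there is 1 library per time point, and for the same reason no library could be left out of a comparison. Of the 70 changes of the factors, all 70 kept their direction and moved by less than their interval under DESeq2 size factors, TMM without 2 abundant genes and a pseudocount of 5. On TPM 26 left their interval and 1 called value reversed, Msx1 on day 10 against day 0, from -1.10 to 0.012; the TPM scale raised the median of all kept genes by 0.56, 0.95 and 0.72 on days 5, 10 and 14 against day 0. Relative to that median, 6 factors were over 2-fold higher and 1 lower on day 14, and 8 were higher and 2 lower on day 10. On TPM the direction also turned for Msx1 on days 5 (0.37) and 14 (0.22), Egr2 on day 5 (0.31), Ets1 on day 5 (0.29), Nr2f1 on day 2 (-0.17) and Nr2f2 from day 5 to day 10 (0.53) and from day 10 to day 14 (-0.010). With the length group median subtracted 11 left their interval, and the steps of Ets1 from day 10 to day 14 (0.08) and of Egr2 from day 2 to day 5 (-0.07) turned. The causes were not tested. Of the 15 shares within pairs, 6 left their interval in summed TPM, those of Nr2f1 and Tfap2a on days 5, 10 and 14.

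The number of factors past the threshold moved as follows. Higher on day 2 it was 0 on TPM, with a pseudocount of 5 and at 4-fold. Lower on day 2 it was 0 with 50 or more counts and at 4-fold. Lower on day 10 it was 1 on TPM, with a pseudocount of 5, with the length group median subtracted and at 4-fold, and 0 with 50 or more counts, as it was lower on days 5 and 14 with that filter. Lower on day 5 than on day 2 it was 0 on TPM, with a pseudocount of 5, with 50 or more counts and at 4-fold. At 4-fold it was 2 higher on day 5, 3 from day 2 to day 5, and 0 from day 5 to day 10 and from day 10 to day 14. Of the factors over 2-fold higher on day 14, Ets1 (1.24) and Nr2f2 (1.14) were under 4-fold. On day 10 the same held for Egr2 (1.33) and Ets1 (1.46). With the length group median subtracted, Ets1 (0.78) and Nr2f2 (0.74) were under 2-fold on day 14, and Ets1 (0.67) on day 10.

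Of the family relatives on day 14, 1 was higher with the length group median subtracted, with 50 or more counts and at 4-fold, and lower were 1 on TPM and at 4-fold, 5 with no filter and 0 with 50 or more counts. Of the other crest regulators, 2 were higher with 50 or more counts and 3 at 4-fold, and lower were 6 on TPM and at 4-fold and 7 with 50 or more counts. From day 10 to day 14, the relatives had 1 higher on TPM, with 50 or more counts and at 4-fold and 1 lower with the length group median subtracted, and the crest regulators had 7 lower on TPM, 5 with no filter and 0 with 50 or more counts. In that interval the Schwann regulators had 1 higher at 4-fold and 1 lower on TPM and with the length group median subtracted, the surface genes had 0 higher at 4-fold, and the myelin genes had 1 higher with no filter and 2 lower at 4-fold. At these depths, factors under 10 counts on a day, Pax3, Tfap2b, Foxd3, Msx1, Msx2, Egr2 and Tfap2a on 1 or more days, have wide intervals.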
